A study of Mus musculus with 46 samples.

Results

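Ribosomes inside mitochondria translate the messenger RNAs that are copied from mitochondrial DNA, and all of their proteins are coded by genes of the nucleus. Some of these proteins have relatives in the ribosomes of bacteria, and others are found only in mitochondria. The symbols *Mrpl* and *Mrps* name proteins of the large and of the small subunit, with exceptions: the products of *Mrps30* and *Mrps18a* sit in the large subunit, and that of *Mrps36* is a part of the oxoglutarate dehydrogenase complex. Genes were taken when the Ensembl identifier of their row carried a mouse symbol made of *Mrpl* or *Mrps*, digits and at most 1 letter. This gave 77 genes, 48 *Mrpl* and 29 *Mrps*, among 17514 genes counted in gastrocnemius and 16987 in spinalis, and all 77 were counted in both muscles. The annotation held 78 such symbols, and the remaining gene, *Mrpl53*, was in neither table and was not analysed here.

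The study asked how loss of *Actn3*, the gene of the fast-fiber protein α-actinin-3, alters the response of mouse muscle to androgens. Male C57BL6 mice, WT or *Actn3* KO, were orchidectomized (ORX) or sham-operated when 8 to 10 weeks old, and gastrocnemius was taken 12 weeks later. The 4 male groups were WT-sham (n = 6), WT-ORX (n = 6), KO-sham (n = 6) and KO-ORX (n = 5). Female C57BL6 mice, WT or KO, carried a 1 cm silastic implant that was empty or held 10 mg of dihydrotestosterone (DHT) from 4 to 5 weeks of age, and spinalis was taken after 6 weeks. The 4 female groups were WT-empty (n = 5), WT-DHT (n = 6), KO-empty (n = 5) and KO-DHT (n = 6). Sex, muscle, age and time of treatment all differed between the 2 experiments, so each was fitted apart, and values are set side by side with no test between them. Libraries were treated as separate mice, which is known only as far as the labels go. Numbers of gastrocnemius libraries are those of the labels, and numbers of spinalis libraries are the order of the columns within a group.

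Reads counted on genes numbered 43408015 to 50273747 in WT-sham (median 47075920), 39882434 to 55369921 in WT-ORX (median 45623436), 29511438 to 37486666 in KO-sham (median 34265228) and 26653932 to 48521557 in KO-ORX (median 41583270). In spinalis they numbered 37289993 to 51183210 in WT-empty (median 46963391), 34812381 to 53899279 in WT-DHT (median 51991317), 42478015 to 47807754 in KO-empty (median 44083490) and 34902028 to 51652767 in KO-DHT (median 44169352). The lowest count of any member in any library was 49 reads in gastrocnemius (*Mrps34*) and 72 in spinalis (*Mrpl23*), so the filter on low counts removed no member. The 77 genes together drew 64670 to 131400 reads a library in gastrocnemius and 70500 to 133900 in spinalis.

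*Actn3* itself matched the genotype labels in all 45 libraries. Its level was 5977 to 7052 CPM (median 6724) in WT-sham, 7826 to 9617 CPM (median 8964) in WT-ORX, 35.8 to 54.8 CPM (median 46.5) in KO-sham and 34.3, 45.2, 49.6, 53.1 and 44.4 CPM in KO-ORX. In spinalis it was 9641, 9812, 9946, 8592 and 10350 CPM in WT-empty, 6164 to 7703 CPM (median 7276) in WT-DHT, 67.5, 83.2, 78.4, 56.6 and 62.1 CPM in KO-empty and 61.4 to 77.5 CPM (median 66.8) in KO-DHT. Every KO library lay far under every WT library, with log2 fold changes of −7.18 ± 0.116, q = 2.7e-25, in sham mice and −7.12 ± 0.124, q = 8.5e-23, in mice with empty implants. All 13 of 13 fiber markers were counted in both muscles, and they summed to 182900 to 254300 CPM (median 196800) in WT-sham, 179900 to 234200 CPM (median 211700) in WT-ORX, 168200 to 303500 CPM (median 192000) in KO-sham and 196200, 177700, 191800, 196800 and 179100 CPM in KO-ORX. The spinalis sums were 272300, 292500, 313100, 267100 and 309400 CPM in WT-empty, 211400 to 298300 CPM (median 253200) in WT-DHT, 257100, 268900, 246500, 229000 and 235600 CPM in KO-empty and 205600 to 262300 CPM (median 227000) in KO-DHT. *Ttn*, the gene of titin, was the most abundant fiber marker in both muscles, and no fiber marker was at 0 in any library.

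Members were mostly among the better expressed genes. Per kilobase of exon, the median *Mrpl* gene was at 12.1 CPM in gastrocnemius, above 86.7% of all genes, and at 11.8 CPM in spinalis, above 86.5%. The median *Mrps* gene was at 6.03 CPM per kilobase in gastrocnemius, above 75.6% of all genes, and at 5.61 in spinalis, above 74.5%. In gastrocnemius the highest *Mrpl* genes were *Mrpl54* (47.6 CPM per kilobase), *Mrpl18* (46.9) and *Mrpl42* (41.3), and the lowest were *Mrpl17* (3.58), *Mrpl19* (2.66) and *Mrpl23* (0.76). The spinalis order put *Mrpl2* (44.5), *Mrpl54* (42.1) and *Mrpl34* (39.5) first and *Mrpl17* (3.9), *Mrpl19* (2.89) and *Mrpl23* (0.56) last. *Mrps21* (80.7), *Mrps28* (48.9) and *Mrps23* (34.2) led the *Mrps* genes of gastrocnemius, and *Mrps10* (2.11), *Mrps35* (1.9) and *Mrps34* (0.94) were last. The same 6 genes stood at the ends in spinalis, at 71.7, 49.1 and 31.7 CPM per kilobase and at 2.08, 1.81 and 1.61.

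Some of these levels are uncertain. The strand setting of the counting is not given, so reads of genes that overlap could have been shared or dropped, and in the GENCODE annotation exons of 27 members overlapped a gene on the opposite strand and those of 7 a gene on the same strand. *Mrpl46* and *Mrps11* overlap each other on opposite strands, *Mrps6* shares exons with *Slc5a3*, and *Mrps34* lies across *Nme3* and *Mapk8ip3*. Named pseudogenes of *Mrpl23*, *Mrpl48* and *Mrps36* exist, 4 of them with rows of their own in the tables, and reads placed in more than 1 of these copies may be missing from the parent gene. *Mrpl23* and *Mrps34*, the lowest members of each subunit per kilobase, are among these genes. Levels per kilobase also rest on the merged length of all annotated exons of a gene, not on the transcripts present in muscle. *Mrpl17*, with 7605 bases of exon, was among the lowest per kilobase in gastrocnemius. Its mean there was 27.26 CPM, beside a median of 29.95 CPM over *Mrpl* genes.

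WT-DHT 5 and WT-DHT 6 stood apart from the other WT-DHT libraries. Over all genes, χ² per degree of freedom against the other 4 was 560.7 to 630.5 for WT-DHT 5 and 284.8 to 378.8 for WT-DHT 6, and among those 4 it was 20.83 to 42.49. *Lars2*, a mitochondrial tRNA synthetase named here after its values were seen, was at 71870 and 32590 CPM in these 2 libraries, and at 568.5 to 915.2 CPM in the other WT-DHT libraries. The TMM factors were 0.846 and 0.897 beside 0.948 to 1.07. The 2 mitochondrial ribosomal RNAs summed to 38070 and 29340 CPM in them and to 61200 to 91520 CPM in the other 4. Low sums of these RNAs and high *Lars2* were not limited to them: WT-empty 2, WT-empty 3, KO-DHT 2 and KO-DHT 3 had 18690, 15790, 25680 and 28520 CPM of the RNAs and 8922, 4660, 13460 and 7640 CPM of *Lars2*, which was at 3400 CPM or less in the remaining 12 libraries of the other groups, and χ² per degree of freedom reached 269.5 within KO-DHT. Fits without WT-DHT 5 and WT-DHT 6, and fits without all 6 libraries, which left 3 WT-empty, 4 WT-DHT and 4 KO-DHT, were chosen after the data were seen and are given with the DHT contrasts.

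Members varied little between replicates of a group. The pooled standard deviation of log2 CPM within groups had a median of 0.12 over *Mrpl* genes in both muscles, lowest in *Mrpl37* of gastrocnemius (0.067) and highest in *Mrpl23* of spinalis (0.30). For *Mrps* genes the median was 0.12 in gastrocnemius and 0.14 in spinalis, lowest in *Mrps7* of gastrocnemius (0.059) and highest in *Mrps34* of spinalis (0.30).

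Summed over the 48 *Mrpl* genes, levels were 1629 to 1824 CPM (median 1760) in WT-sham, 1572 to 1862 CPM (median 1696) in WT-ORX, 1700 to 1970 CPM (median 1867) in KO-sham and 1561, 1687, 1789, 1592 and 1623 CPM in KO-ORX. The 29 *Mrps* genes summed to 690 to 781 CPM (median 739) in WT-sham, 680 to 775 CPM (median 725) in WT-ORX, 724 to 815 CPM (median 784) in KO-sham and 683, 729, 789, 684 and 697 CPM in KO-ORX. For *Mrpl*, 4 of 5 KO-ORX libraries lay under the lowest KO-sham library, and the remaining one, KO-ORX 3, lay among them; by library size KO-sham ran from 1531 to 1934 CPM and KO-ORX from 1611 to 1837 CPM, and 0 of 5 lay under the lowest KO-sham library. In bulk muscle, fewer cells of a type cannot be told apart from less RNA per cell, and this holds for every level given here. In spinalis the *Mrpl* sums were 1576, 1680, 1504, 1402 and 1425 CPM in WT-empty, 1522 to 1672 CPM (median 1580) in WT-DHT, 1483, 1529, 1559, 1459 and 1659 CPM in KO-empty and 1629 to 1751 CPM (median 1736) in KO-DHT. The *Mrps* sums were 696, 742, 683, 637 and 624 CPM in WT-empty, 665 to 723 CPM (median 677) in WT-DHT, 660, 689, 692, 639 and 744 CPM in KO-empty and 694 to 765 CPM (median 740) in KO-DHT. *Mrpl* sums were highest in KO-DHT, where 5 of 6 libraries exceeded every WT-DHT library and KO-DHT 6 did not (all 6 did by library size), while the ranges of WT-empty and KO-empty overlapped for both subunits.

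**Figure D1:**
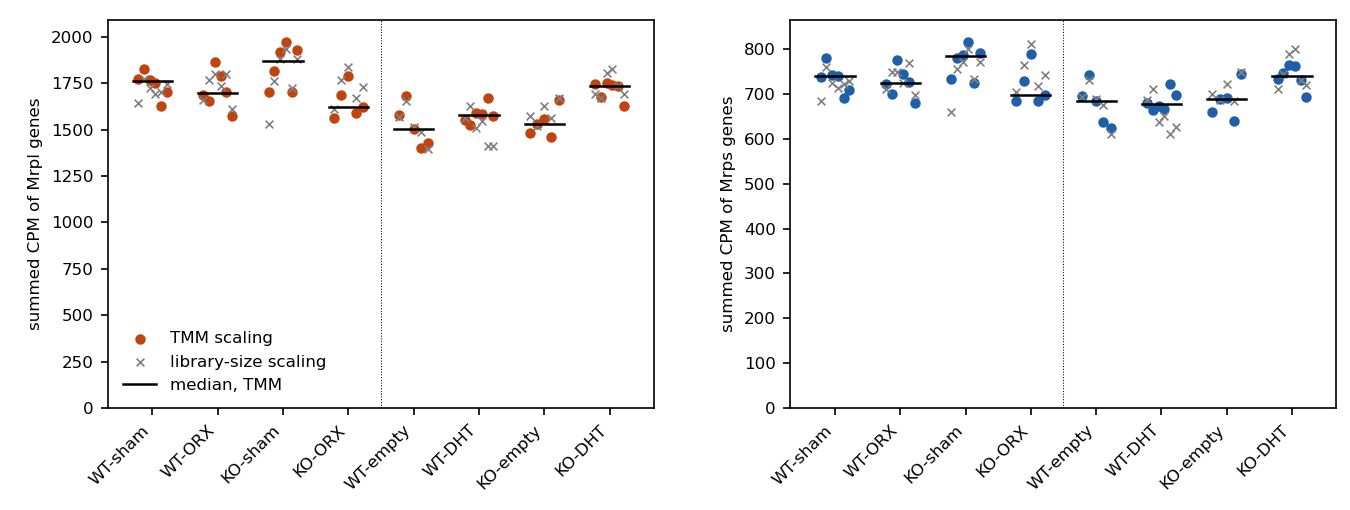
Summed CPM of the 48 *Mrpl* genes (left) and the 29 *Mrps* genes (right) in each library, scaled by TMM or by library size. TMM medians of *Mrpl* were 1867 CPM in KO-sham and 1623 CPM in KO-ORX, and by library size they were 1820 and 1727.

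ORX in KO mice moved 8 members by edgeR with TMM. There 6 *Mrpl* genes fell and 0 rose, and 2 *Mrps* genes fell and 0 rose, against 627 genes lower (3.58%) and 348 higher (1.99%) among all genes at q ≤ 0.01. Another 30 members had an unadjusted p < 0.05, so that 38 of 77 did, against 24.5% of all genes. The median log2 fold change was −0.15 over *Mrpl*, with 46 of 48 genes negative, and −0.10 over *Mrps*, with 24 of 29 negative, beside 0.01 over all genes, of which 46.9% were negative; with library-size scaling the *Mrpl* median was −0.05 and the *Mrps* median turned to 0.008. The *Mrps* median was −0.16 without KO-ORX 3. That scaling moved the median of all genes from 0.01 to 0.12 and the calls over all genes from 348 higher and 627 lower to 707 higher and 193 lower. Relative to the median of all genes, *Mrpl* stood at −0.17 by TMM and at −0.17 by library size, and *Mrps* at −0.11 and −0.11.

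*Mrpl55* fell most clearly, from 33.3 to 38.8 CPM (median 35.8) in KO-sham to 30.4, 30.3, 28.4, 27.5 and 28.4 CPM in KO-ORX (log2 fold change −0.31 ± 0.0555, q = 5.7e-04). All 5 KO-ORX libraries lay under all 6 KO-sham libraries. *Mrps5* went from 28.4 to 32 CPM (median 30.6) in KO-sham to 23.4, 26.1, 27.3, 25.4 and 24.7 CPM in KO-ORX (−0.26 ± 0.0517, q = 0.00126), and its groups did not overlap either. *Mrpl37*, specific to mitochondria, was at 33.6 to 35.7 CPM (median 34.2) in KO-sham and at 29.4, 29.2, 30.8, 29.9 and 27.8 CPM in KO-ORX (−0.22 ± 0.0485, q = 0.00318). Here too each KO-ORX value was under each KO-sham value. *Mrpl51* was at 123 to 148 CPM (median 136) in KO-sham and at 110, 114, 125, 112 and 110 CPM in KO-ORX (−0.24 ± 0.0537, q = 0.00343). The only overlap was KO-ORX 3, which passed the lowest sham library, KO-sham 5.

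*Mrpl9* measured 39.2 to 48.5 CPM (median 46.5) in KO-sham and 34.7, 37.3, 42.3, 36.2 and 37.3 CPM in KO-ORX (−0.27 ± 0.0606, q = 0.00398). As with *Mrpl51*, KO-ORX 3 lay above KO-sham 5 and the other libraries were apart. *Mrpl2* measured 49.1 to 53 CPM (median 51.4) in KO-sham and 43.3, 45, 47.1, 43.9 and 40 CPM in KO-ORX (−0.22 ± 0.0494, q = 0.00461), with no overlap of the groups. *Mrps9* measured 36.9 to 40.8 CPM (median 38) in KO-sham and 33.7, 33.5, 35, 29.6 and 32.6 CPM in KO-ORX (−0.23 ± 0.0558, q = 0.00844), again with the groups apart. *Mrpl19* had the smallest level of the 8, 15.1 to 17.9 CPM (median 16.3) in KO-sham and 12.7, 13.1, 14, 13.7 and 14.7 CPM in KO-ORX (−0.26 ± 0.0663, q = 0.00971), and its highest KO-ORX library was just under its lowest KO-sham library.

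The number of members that passed depended on single libraries. It was 2 without KO-ORX 5, 13 without KO-sham 5, 16 by DESeq2 and 1 with library-size scaling, although all 8 named members kept a negative log2 fold change throughout. With library-size scaling these values ran from −0.20 to −0.11, in place of −0.31 to −0.22 by TMM. Over the 23 fits with 1 library left out, the calls of *Mrpl55* and *Mrps5* were lost in 0, that of *Mrpl37* in 1, *Mrpl51* in 4, *Mrpl2* in 5, *Mrpl9* in 6, *Mrps9* in 14 and *Mrpl19* in 19.

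In WT mice no member passed the threshold after ORX. By edgeR 0 of 77 members rose and 0 fell, against 358 genes higher (2.04%) and 597 lower (3.41%) among all genes, or 422 higher and 354 lower with library-size scaling. At unadjusted p < 0.05 there were 14 of 77 members, against 22.3% of all genes, and at q ≤ 0.01 there was 1 by DESeq2 and 0 by limma-voom. Over *Mrpl* the median was −0.02 with 30 of 48 genes negative and turned to 0.02 with library-size scaling, and the *Mrps* median was −0.004 with 15 of 29 negative and turned to 0.04. Without WT-ORX 3 they were −0.047 and −0.037, and without WT-sham 2 the *Mrps* median turned to 0.005. The smallest p belonged to *Mrpl55*, at 34.9 to 41.6 CPM (median 39.3) in WT-sham and 32.4 to 38 CPM (median 33.2) in WT-ORX (log2 fold change −0.19 ± 0.052, q = 0.0192), where WT-ORX 3 lay inside the sham range and the other 5 ORX libraries under it. Next came *Mrpl19*, at 13.6 to 16.1 CPM (median 14.8) in WT-sham and 11.5 to 14.1 CPM (median 12.7) in WT-ORX (−0.22 ± 0.0623, q = 0.0247), and *Mrpl28* came after it, at 31.4 to 38.2 CPM (median 36) in WT-sham and 26.8 to 32.8 CPM (median 31.4) in WT-ORX (−0.21 ± 0.0653, q = 0.0428). The groups of both genes overlapped, with 2 WT-ORX libraries of *Mrpl19* and 3 of *Mrpl28* inside the sham range.

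The response to ORX was then compared between genotypes as a difference of differences, KO minus WT. By edgeR 0 of 77 members passed q ≤ 0.05 in either direction, against 3 genes higher (0.0171%) and 1 lower (0.00571%) among all 17514, or 3 higher and 0 lower with library-size scaling. Unadjusted p was under 0.05 for 14 of 77 members, against 9.61% of all genes, and DESeq2 called 2 and limma-voom 1. Differences over *Mrpl* had a median of −0.12 with 45 of 48 genes negative, and the *Mrps* median was −0.09 with 22 of 29 negative, beside 0.003 over all genes; with library-size scaling they were −0.05 with 37 negative and −0.02 with 18 negative. The *Mrps* median ran from −0.13 (without KO-ORX 3) to −0.053 (without WT-ORX 3). *Mrps5* had the smallest p, with a difference of −0.36 ± 0.0711, q = 0.0595, made of 0.10 in WT and −0.26 in KO. *Mrps27* had a difference of −0.39 ± 0.103, q = 0.14, from 0.09 in WT and −0.29 in KO. *Mrpl49* differed by −0.31 ± 0.0832, q = 0.152, from 0.11 in WT and −0.20 in KO.

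None of the 8 members that fell in KO mice passed this test. *Mrpl55* was −0.19 in WT, a difference of −0.12 ± 0.076, q = 0.641, and *Mrpl19* was −0.22 in WT, a difference of −0.05 ± 0.0908, q = 0.914. *Mrpl9* was −0.05 in WT and differed by −0.22 ± 0.0833, q = 0.351. For *Mrpl2* the WT value was −0.04 and the difference −0.17 ± 0.0679, q = 0.375. For *Mrpl37* these were −0.07 and −0.15 ± 0.0666, q = 0.464, and for *Mrpl51* −0.10 and −0.15 ± 0.0738, q = 0.535. *Mrps9* was −0.08 in WT and differed by −0.15 ± 0.0767, q = 0.565.

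**Figure D2:**
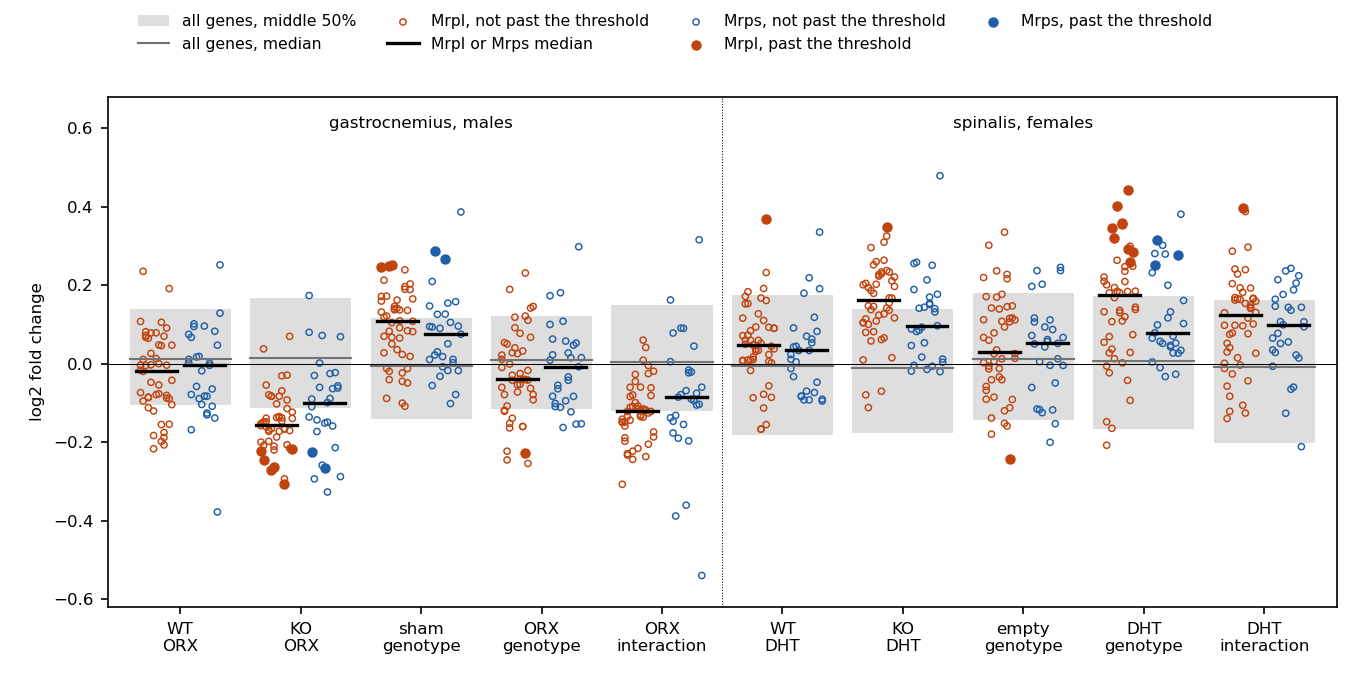
Log2 fold changes of the 48 *Mrpl* and 29 *Mrps* genes in the 10 contrasts, with the median and the middle 50% of all genes in gray. The *Mrpl* median was −0.15 in KO mice after ORX and 0.17 between genotypes under DHT, and with library-size scaling −0.05 and 0.26; the *Mrps* median after ORX in KO mice, −0.10, turned to 0.008.

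Among sham-operated mice, 5 members were higher in KO than in WT gastrocnemius. Between KO-sham and WT-sham, edgeR called 3 *Mrpl* genes higher and 0 lower and 2 *Mrps* genes higher and 0 lower, against 434 genes higher (2.48%) and 494 lower (2.82%) among all genes, or 278 higher and 444 lower with library-size scaling. The *Mrpl* median was 0.11 with 38 of 48 genes positive, and the *Mrps* median was 0.08 with 22 of 29 positive, beside −0.007 over all genes, of which 48.4% were positive. The *Mrps* median was 0.045 without KO-sham 3. KO-sham is the control of the ORX contrast in KO mice as well, so *Mrpl9* and *Mrps5*, which are called in both, rest on the same 6 libraries. Each KO-sham library had fewer reads than each WT-sham library. TMM factors were 0.9005 to 1.012 in KO-sham, 0.9275 to 1.046 in WT-sham and 1.027 to 1.065 in KO-ORX. The part of read depth in these calls was not tested.

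*Mrpl3* was at 40.9 to 42.7 CPM (median 42) in WT-sham and 46.1 to 54.6 CPM (median 49) in KO-sham (log2 fold change 0.25 ± 0.0457, q = 5.4e-04). Each KO-sham library exceeded each WT-sham library. *Mrps5* was at 23.8 to 28.2 CPM (median 25.1) in WT-sham and 28.4 to 32 CPM (median 30.6) in KO-sham (0.27 ± 0.049, q = 5.7e-04), with a narrow gap between the groups. *Mrpl9* was at 34.8 to 41.5 CPM (median 38.1) in WT-sham and 39.2 to 48.5 CPM (median 46.5) in KO-sham (0.25 ± 0.0575, q = 0.00456), where WT-sham 1 lay above KO-sham 5 and the groups were otherwise apart. *Mrpl49*, specific to mitochondria, was at 20.8 to 22 CPM (median 21.5) in WT-sham and 23 to 28.2 CPM (median 25.6) in KO-sham (0.25 ± 0.0575, q = 0.00515), and no libraries overlapped. *Mrps27*, an RNA-binding protein of the small subunit, was at 11.9 to 15.1 CPM (median 14.2) in WT-sham and 14.9 to 18.5 CPM (median 16.6) in KO-sham (0.29 ± 0.0708, q = 0.00829), with WT-sham 2 above KO-sham 5. The count of 5 fell to 2 when WT-sham 4, WT-sham 5, KO-sham 2, KO-sham 3 or KO-sham 6 was left out and to 1 with library-size scaling, and DESeq2 called 8. Of 23 fits with 1 library left out, the calls of *Mrpl3* and *Mrps5* were lost in 0, those of *Mrpl9* and *Mrpl49* in 6 each and that of *Mrps27* in 12.

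Between KO-ORX and WT-ORX 1 member passed. EdgeR called 1 *Mrpl* gene lower and 0 higher and 0 *Mrps* genes in either direction, against 188 genes higher (1.07%) and 478 lower (2.73%) among all genes, or 222 higher and 251 lower with library-size scaling. Among members 11 of 77 had an unadjusted p < 0.05, against 18.9% of all genes, and DESeq2 called 3 and limma-voom 1. The *Mrpl* median, −0.04, turned to 0.005 with library-size scaling, and the *Mrps* median, −0.01, turned to 0.04. Single libraries moved the first from −0.065 (without KO-ORX 3) to −0.006 (without KO-ORX 1) and the second from −0.055 (without KO-ORX 3) to 0.017 (without KO-ORX 4). The gene called was *Mrpl55*, at 32.4 to 38 CPM (median 33.2) in WT-ORX and 30.4, 30.3, 28.4, 27.5 and 28.4 CPM in KO-ORX (−0.23 ± 0.0552, q = 0.00924), with every KO-ORX library under every WT-ORX library. Its call was lost with library-size scaling and in 17 of 23 fits with 1 library left out. *Mrpl3* had the next smallest p, at 35.9 to 40.4 CPM (median 39.1) in WT-ORX and 40.1, 44.7, 48.1, 43.5 and 44.3 CPM in KO-ORX (0.19 ± 0.0479, q = 0.013), KO-ORX 1 overlapping WT-ORX 5. *Mrpl30* followed, at 96.4 to 122 CPM (median 110) in WT-ORX and 84.4, 103, 95.1, 85.5 and 92.6 CPM in KO-ORX (−0.25 ± 0.0698, q = 0.0228), where KO-ORX 2 lay in the WT-ORX range.

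In spinalis of females, DHT in WT mice moved 1 member. EdgeR called 1 *Mrpl* gene higher and 0 lower and 0 *Mrps* genes in either direction, against 1126 genes higher (6.63%) and 788 lower (4.64%) among all genes, or 771 higher and 997 lower with library-size scaling. Unadjusted p was under 0.05 for 10 of 77 members, against 29.8% of all genes, and DESeq2 and limma-voom called 1 each. Over *Mrpl* the median was 0.05 with 39 of 48 genes positive and turned to −0.03 with library-size scaling, and the *Mrps* median was 0.03 with 18 of 29 positive and turned to −0.04. Relative to the median of all genes the *Mrpl* genes stood at 0.06 by TMM and 0.05 by library size. *Mrpl14*, a relative of a bacterial protein, rose from 24.8, 22.6, 21.1, 23 and 22.4 CPM in WT-empty to 25.6 to 34.2 CPM (median 28) in WT-DHT (0.37 ± 0.0905, q = 0.00473), and all 6 WT-DHT libraries exceeded all 5 WT-empty libraries. *Mrpl55* was at 28.7, 33.1, 27.4, 25.7 and 28.9 CPM in WT-empty and 30.2 to 37 CPM (median 33.7) in WT-DHT (0.23 ± 0.0752, q = 0.0324), with WT-DHT 2 and WT-DHT 6 below WT-empty 2. *Mrpl50* was at 37.9, 32.1, 31.3, 35.1 and 31.9 CPM in WT-empty and 34.9 to 40.4 CPM (median 38.1) in WT-DHT (0.17 ± 0.0546, q = 0.0339), and 3 WT-DHT libraries lay in the range of the empty implants. The *Mrpl14* call was lost without WT-DHT 1, WT-DHT 3, WT-empty 2, WT-empty 3, WT-empty 4 or WT-empty 5 and with library-size scaling. Without both WT-DHT 5 and WT-DHT 6 *Mrpl14* passed by either scaling (0.42 by TMM), and the medians were 0.004 over *Mrpl* and −0.02 over *Mrps*. Without all 6 libraries 0 members passed, at a log2 fold change of 0.38 for *Mrpl14*. Single libraries moved the *Mrpl* median from 0.017 (without WT-DHT 5) to 0.097 (without WT-empty 2), and the *Mrps* median from −0.002 (without WT-empty 5) to 0.044 (without WT-empty 2).

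DHT in KO mice gave larger medians but few calls. By edgeR 1 *Mrpl* gene rose and 0 fell and 0 *Mrps* genes passed in either direction, against 486 genes higher (2.86%) and 298 lower (1.75%) among all genes. At unadjusted p < 0.05 there were 36 of 77 members, against 25.2% of all genes, and DESeq2 called 2 and limma-voom 1. The *Mrpl* median was 0.16 with 45 of 48 genes positive, and the *Mrps* median was 0.10 with 24 of 29 positive, beside −0.01 over all genes, of which 47.9% were positive. The *Mrps* median was 0.062 without KO-empty 4. *Mrpl55* rose from 23.1, 26.8, 25.1, 23.2 and 30.7 CPM in KO-empty to 30.3 to 34.4 CPM (median 33.5) in KO-DHT (0.35 ± 0.0754, q = 0.00397), with only KO-empty 5 above the lowest DHT library. *Mrpl43* was at 10.7, 11.8, 12.2, 11.6 and 13 CPM in KO-empty and 13.5 to 14.7 CPM (median 13.8) in KO-DHT (0.23 ± 0.0644, q = 0.0207), and its groups did not overlap. *Mrpl14* was at 23.3, 25, 27.5, 26.2 and 31.3 CPM in KO-empty and 28.5 to 40.3 CPM (median 32.7) in KO-DHT (0.32 ± 0.0901, q = 0.0214), where KO-empty 5 exceeded 2 KO-DHT libraries. Without KO-empty 5, 4 members passed, and without KO-DHT 1, KO-DHT 3, KO-empty 1, KO-empty 3 or KO-empty 4, or with library-size scaling, 0 did. Without the 6 libraries named above 0 passed as well, at 0.36 for *Mrpl55* and medians of 0.16 and 0.11.

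*Mrpl55* fell after ORX and rose after DHT in KO mice. Its log2 fold changes were −0.19 and −0.31 after ORX in WT and KO gastrocnemius and 0.23 and 0.35 after DHT in WT and KO spinalis, of which only the KO values passed the threshold. For DHT the difference between genotypes was 0.12 ± 0.106, q = 0.672. *Mrpl14* had values of −0.18, −0.29, 0.37 and 0.32 in the same order, and only that of WT-DHT passed; its difference between genotypes under DHT was −0.04 ± 0.127, q = 0.92.

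With empty implants the genotypes differed in 1 member. EdgeR called 1 *Mrpl* gene lower and 0 higher and 0 *Mrps* genes in either direction, against 298 genes higher (1.75%) and 424 lower (2.5%) among all genes, or 282 higher and 251 lower with library-size scaling. Unadjusted p was under 0.05 for 16 of 77 members, against 23.4% of all genes, while DESeq2 called 2 and limma-voom 0. The *Mrpl* median was 0.03 and the *Mrps* median 0.05, beside 0.01 over all genes, and with library-size scaling they were 0.07 and 0.10, beside 0.06. The *Mrpl* median ran from 0.0045 (without WT-empty 4) to 0.098 (without WT-empty 2), and the *Mrps* median from 0.024 (without WT-empty 5) to 0.086 (without WT-empty 2); without the 6 libraries they were 0.096 and 0.085, and 0 members passed. *Mrpl30* was lower in KO mice, at 91.6, 93.1, 81.6, 74.1 and 80.7 CPM in WT-empty and 67.3, 70.8, 73.7, 70.7 and 73.3 CPM in KO-empty (−0.24 ± 0.0591, q = 0.00972). The highest KO-empty library was just under the lowest WT-empty library, and the call was lost with limma-voom, with library-size scaling and in 21 of 22 fits with 1 library left out. *Mrpl27* was at 15.1, 15.3, 14.1, 15.1 and 14.2 CPM in WT-empty and 16.2, 18.6, 16.9, 18.6 and 20.5 CPM in KO-empty (0.30 ± 0.0769, q = 0.0137), with the groups apart. *Mrpl41* was at 14.4, 16.6, 14, 14.2 and 12.2 CPM in WT-empty and 15.6, 16.1, 18.1, 15.5 and 17.7 CPM in KO-empty (0.22 ± 0.0707, q = 0.0558), and 3 KO-empty libraries lay under WT-empty 2.

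Under DHT the genotypes differed in 12 members by edgeR with TMM. By edgeR 9 *Mrpl* genes were higher and 0 lower and 3 *Mrps* genes were higher and 0 lower in KO-DHT than in WT-DHT, against 872 genes higher (5.13%) and 1106 lower (6.51%) among all genes, or 1295 higher and 687 lower with library-size scaling. The *Mrpl* median was 0.17 with 41 of 48 genes positive, and the *Mrps* median was 0.08 with 26 of 29 positive, beside 0.006 over all genes, of which 51.1% were positive. With library-size scaling the medians were 0.26 and 0.16, beside 0.09 over all genes, and 24 members passed. Leaving out single libraries gave 9 to 14. Without both WT-DHT 5 and WT-DHT 6 there were 12 by TMM, 9 of them among the 12 called in all libraries, and 11 with library-size scaling in place of 24, with *Mrpl* and *Mrps* medians of 0.18 and 0.12 by TMM. Without all 6 libraries there were 8, each of them among the 12, with medians of 0.20 and 0.09. DESeq2 called 16 here and also 16 after ORX in KO mice.

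*Mrpl3* was at 35 to 39.6 CPM (median 35.8) in WT-DHT and 42.8 to 48.4 CPM (median 46.6) in KO-DHT (log2 fold change 0.35 ± 0.0516, q = 2.7e-05). *Mrpl28* had the largest change, 30.3 to 38.6 CPM (median 32.8) in WT-DHT and 40 to 47.9 CPM (median 45.9) in KO-DHT (0.44 ± 0.0719, q = 7.6e-05). *Mrpl10* stood at 17.4 to 19.6 CPM (median 18.4) in WT-DHT and 21.2 to 25.4 CPM (median 23.9) in KO-DHT (0.36 ± 0.0655, q = 2.8e-04). In all 3 genes each KO-DHT library exceeded each WT-DHT library. *Mrpl46*, whose exons overlap those of *Mrps11*, was at 14.1 to 18.5 CPM (median 16.3) in WT-DHT and 19.8 to 23.3 CPM (median 21.6) in KO-DHT (0.40 ± 0.0743, q = 3.2e-04), while *Mrps11* on the opposite strand had a log2 fold change of 0.05 ± 0.0683, q = 0.722. *Mrpl38* was at 24.3 to 28.4 CPM (median 27) in WT-DHT and 29.2 to 36.5 CPM (median 34.7) in KO-DHT (0.36 ± 0.0726, q = 9.0e-04). *Mrpl45* reached the highest level of those named here, 46.8 to 53.2 CPM (median 50.6) in WT-DHT and 57.2 to 67.3 CPM (median 61) in KO-DHT (0.28 ± 0.0581, q = 9.4e-04). The groups of *Mrpl46*, *Mrpl38* and *Mrpl45* were likewise apart.

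*Mrpl41* was at 15.3 to 17.4 CPM (median 15.8) in WT-DHT and 19.1 to 20.3 CPM (median 19.4) in KO-DHT (0.29 ± 0.0643, q = 0.00186). *Mrpl16* was at 27.9 to 30.1 CPM (median 28.5) in WT-DHT and 32.7 to 36 CPM (median 35.1) in KO-DHT (0.26 ± 0.0582, q = 0.00226). Neither gene showed any overlap between the groups, though the call of *Mrpl41* was lost without WT-DHT 5 and WT-DHT 6 and those of both without the 6 libraries. *Mrps9* was at 23.3 to 30.1 CPM (median 26.2) in WT-DHT and 29.6 to 33 CPM (median 31.7) in KO-DHT (0.25 ± 0.0567, q = 0.00227), with WT-DHT 6 above KO-DHT 1 and KO-DHT 4. *Mrpl9* was at 35.6 to 45.7 CPM (median 37.4) in WT-DHT and 45.2 to 53.9 CPM (median 49.5) in KO-DHT (0.32 ± 0.0766, q = 0.00392), with WT-DHT 5 above KO-DHT 1 and KO-DHT 6, and its call was lost in 6 of 22 fits with 1 library left out. The remaining 2 members past the threshold were *Mrps* genes, each with the groups apart and each lost without WT-DHT 5 and WT-DHT 6.

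The responses to DHT were compared between genotypes as a difference of differences, and of the 12 members above 1 passed, *Mrpl38*. Over all members, edgeR called 1 *Mrpl* gene higher and 0 lower in this test at q ≤ 0.05 and 0 *Mrps* genes in either direction, against 228 genes higher (1.34%) and 322 lower (1.9%) among all genes, or 284 higher and 231 lower with library-size scaling. Unadjusted p was under 0.05 for 9 of 77 members, against 15.1% of all genes, and DESeq2 and limma-voom called 1 each. Differences over *Mrpl* had a median of 0.12 with 38 of 48 genes positive, and the *Mrps* median was 0.10 with 24 of 29 positive, beside −0.009 over all genes, which library-size scaling turned to 0.03. The *Mrps* median ran from 0.043 (without WT-empty 2) to 0.14 (without WT-empty 5).

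The gene past this threshold was *Mrpl38*, at 32.2, 34.8, 27.3, 25.8 and 29.7 CPM in WT-empty and 24.3 to 28.4 CPM (median 27) in WT-DHT in WT mice, a log2 fold change of −0.17 ± 0.076, q = 0.139. In KO mice it was at 27.7, 29.7, 29.7, 25.9 and 32.6 CPM in KO-empty and 29.2 to 36.5 CPM (median 34.7) in KO-DHT, a log2 fold change of 0.23 ± 0.0761, q = 0.0545, and the difference was 0.40 ± 0.108, q = 0.0406. Libraries with DHT and with empty implants overlapped in both genotypes. The call was lost at q ≤ 0.01 and in 17 of 22 fits with 1 library left out, and its log2 value ran from 0.33 to 0.45 over these fits. Without both WT-DHT 5 and WT-DHT 6 it passed, at 0.44, and without all 6 libraries it did not, at 0.45. *Mrpl52* had a difference of 0.39 ± 0.136, q = 0.141, and *Mrpl28* one of 0.30 ± 0.106, q = 0.153, neither past the threshold.

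**Figure D3:**
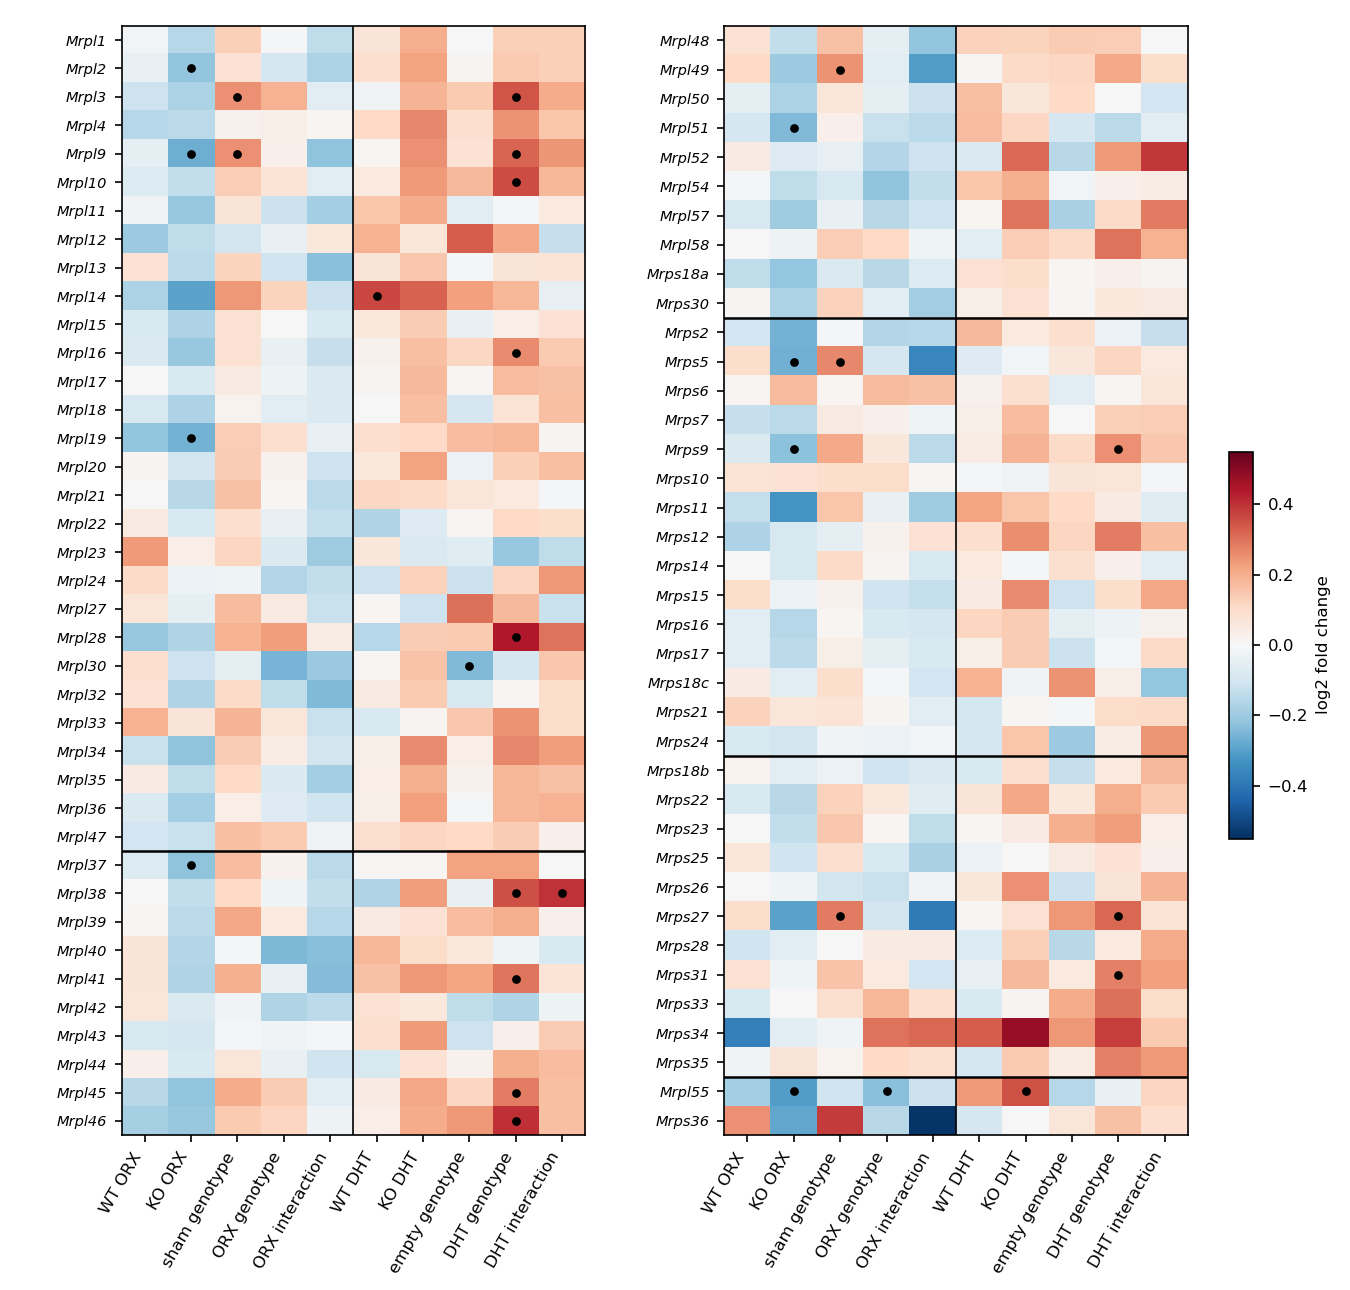
Log2 fold change of each of the 77 genes in the 10 contrasts, ordered as large-subunit relatives of bacterial proteins, large-subunit proteins specific to mitochondria, and the same 2 classes of the small subunit. Last come *Mrpl55* and *Mrps36*, which were on none of the lists used for these classes. Dots mark values past the threshold, 8 in KO mice after ORX and 12 between genotypes under DHT, or 1 and 24 with library-size scaling.

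Across the 10 contrasts 21 members passed at least 1 threshold, 17 of 48 *Mrpl* and 4 of 29 *Mrps*, and 56 passed none; at least 1 was passed by 25.7% of the 16642 genes counted in both muscles, so that the 21 of 77 lay near that share. *Mrpl55* and *Mrpl9* passed in 3 contrasts each, and *Mrpl3*, *Mrpl38*, *Mrps27*, *Mrps5* and *Mrps9* in 2 each. These contrasts share groups, so the calls of 1 gene are not independent.

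**Figure D4:**
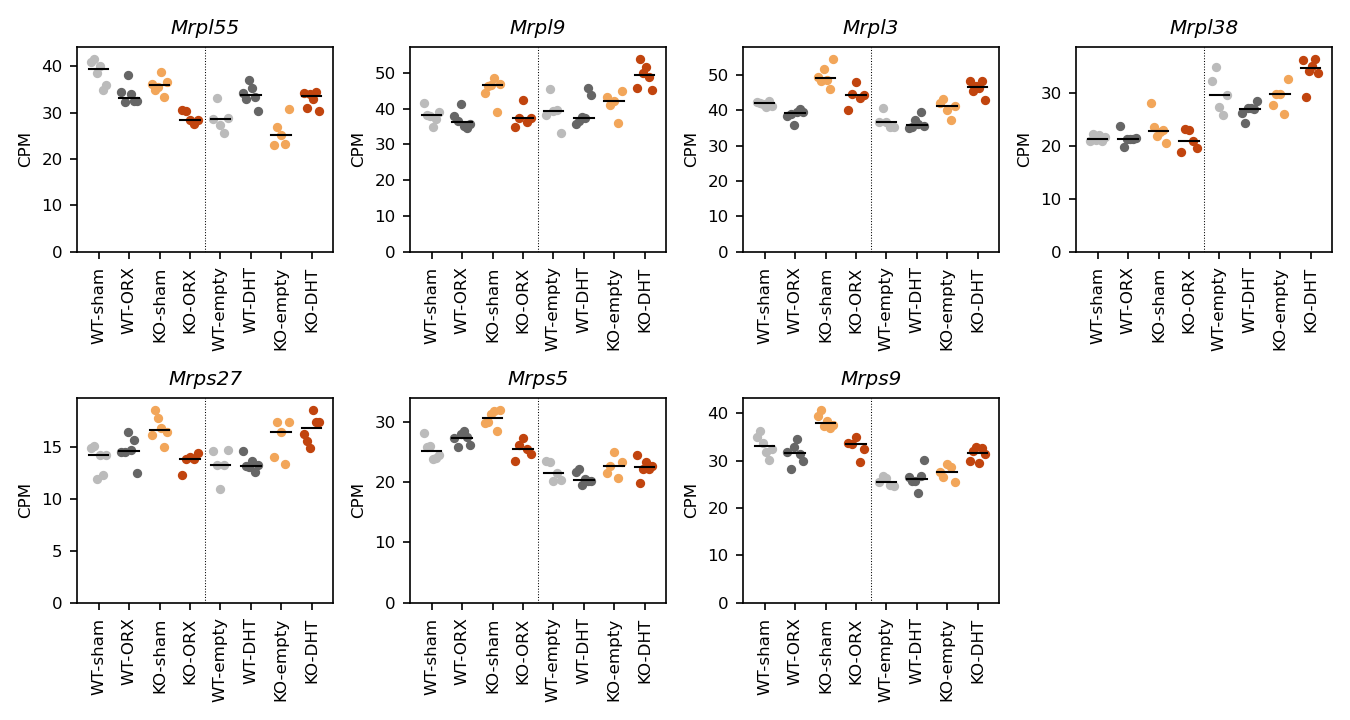
CPM in each library of the 7 members past the threshold in at least 2 contrasts, with the median of each group. Median *Mrpl55* was 35.8 CPM in KO-sham, 28.4 in KO-ORX, 25.1 in KO-empty and 33.5 in KO-DHT.

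By role, the 4 classes of proteins had medians of the same sign in most contrasts by TMM. *Mrpl55* and *Mrps36* were on none of the lists used for these classes. The fall of *Mrpl55* after ORX in KO mice is therefore not in the class counts. After ORX in KO mice 3.58% of all genes fell. There the large-subunit relatives of bacterial proteins had a median of −0.15 (3 of 29 fell) and the large-subunit proteins specific to mitochondria one of −0.16 (2 of 20 fell). Library-size scaling moved these to −0.05 and −0.06. The small-subunit relatives of bacterial proteins had a median of −0.10 (2 of 15 fell), which turned to 0.008 with library-size scaling, and the small-subunit proteins specific to mitochondria one of −0.06 (0 of 11 by edgeR, 2 at unadjusted p < 0.05), which turned to 0.04. Between KO-sham and WT-sham, medians in this order were 0.12 (2 of 29 higher), 0.09 (1 of 20), 0.05 (1 of 15) and 0.09 (1 of 11), against 2.48% of all genes higher. Library-size scaling moved the third to 0.03. Between genotypes under DHT the medians were 0.17 (5 of 29 higher), 0.16 (4 of 20), 0.05 (1 of 15) and 0.23 (2 of 11), against 5.13% of all genes higher. By library size these 4 were 0.26, 0.25, 0.13 and 0.31. With DHT in KO mice the medians by TMM were 0.17, 0.12, 0.14 and 0.13. In WT mice given DHT they were 0.05, 0.05, 0.04 and −0.03, of which the first 3 turned negative with library-size scaling. Differences between classes were not tested.

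*Mrps18a*, *Mrps18b* and *Mrps18c* code for 3 related proteins, of which that of *Mrps18a* sits in the large subunit. None passed a threshold in any contrast. *Mrps18a* had its smallest p after ORX in KO mice, at 37.3 to 44.9 CPM (median 40.1) in KO-sham and 35.2, 35.6, 40, 31.9 and 32.1 CPM in KO-ORX (−0.21 ± 0.0576, q = 0.0157), and KO-ORX 3 alone lay within the sham range. *Mrps18b* spanned log2 fold changes from −0.12 to 0.18 over the 10 contrasts, the highest being the difference of the DHT responses (0.18 ± 0.111, q = 0.487). *Mrps18c* had its smallest p between genotypes with empty implants, at 8.44, 8.55, 9.21, 8.09 and 6.38 CPM in WT-empty and 8.55, 10.7, 9.36, 10.2 and 9.28 CPM in KO-empty (0.25 ± 0.103, q = 0.143), with overlap. *Mrps30* was at 22.1 to 25.5 CPM (median 23.8) in KO-sham and 21.2, 20.6, 22, 20.2 and 21.6 CPM in KO-ORX (−0.17 ± 0.0602, q = 0.0647), with a narrow gap between the groups. *Mrps36* was at 5.04 to 6.09 CPM (median 5.77) in WT-sham and 6.13 to 9.07 CPM (median 7.63) in KO-sham (0.39 ± 0.134, q = 0.0648), with no overlap. *Mrps36* also had the lowest difference of ORX responses of all members (−0.54 ± 0.194, q = 0.33), and WT-ORX 3, at 9.85 CPM, was its highest library. *Mrpl12*, a protein of the ribosomal stalk that also binds the mitochondrial RNA polymerase, was at 33.7 to 45.6 CPM (median 41) in WT-sham and 32.2 to 39.5 CPM (median 34.3) in WT-ORX (−0.20 ± 0.0832, q = 0.148), with overlap.

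Genes that work with these proteins were placed beside them. Of all genes 3.58% fell after ORX in KO mice, and 2.48% were higher in KO-sham than in WT-sham. In KO-DHT 5.13% were higher than in WT-DHT. With DHT in WT mice 6.63% rose and 4.64% fell. Of 5 further subunits with other names, *Ptcd3* was higher in KO-sham than in WT-sham (*Ptcd3*, 0.25 ± 0.0543, q = 0.00323), and 3 were higher in KO-DHT than in WT-DHT (*Dap3*, 0.36 ± 0.0621, q = 1.5e-04; *Ptcd3*, 0.31 ± 0.0582, q = 3.8e-04; *Gadd45gip1*, 0.58 ± 0.127, q = 0.00174). Of 12 translation factors 4 fell after ORX in KO mice, among them *Tufm*, −0.33 ± 0.0683, q = 0.00192, 2 were higher in KO-sham than in WT-sham, and 4 were higher in KO-DHT than in WT-DHT, among them *Tufm*, 0.39 ± 0.0895, q = 0.00274. The medians of the translation factors after ORX in KO mice and between genotypes under DHT, −0.21 and 0.21, had the signs of the *Mrpl* medians. By library size they were −0.11 and 0.29. The initiation factor *Mtif3* rose with DHT in both genotypes (*Mtif3*, 0.61 ± 0.0777, q = 2.3e-06; *Mtif3*, 0.33 ± 0.0763, q = 0.00705) and was higher in KO-empty than in WT-empty (*Mtif3*, 0.54 ± 0.0807, q = 1.2e-04). Of 25 assembly factors and ribosomal RNA modifying enzymes, 4 were higher in KO-sham than in WT-sham, led by *Trub2*, 0.31 ± 0.0549, q = 3.1e-04, and *Trub2* fell after ORX in KO mice (*Trub2*, −0.24 ± 0.0578, q = 0.00603) and was higher in KO-empty than in WT-empty (*Trub2*, 0.30 ± 0.066, q = 0.00477). In KO-DHT 5 of the 25 exceeded WT-DHT, led by *Nsun4*, 0.39 ± 0.0666, q = 1.1e-04. Of 19 mitochondrial tRNA synthetases 3 were higher in KO-DHT than in WT-DHT, led by *Yars2*, 0.40 ± 0.0805, q = 6.8e-04, and with DHT in WT mice 1 rose and 1 fell (*Pars2*, 0.54 ± 0.131, q = 0.00404; *Mars2*, −0.40 ± 0.0732, q = 2.5e-04). The counts with DHT in WT mice lay near the shares of all genes.

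Messenger RNAs coded by mitochondrial DNA, the templates of these ribosomes, were in the tables for 7 of 13 genes. After ORX *mt-Co1* fell in both genotypes (*mt-Co1*, −0.32 ± 0.064, q = 0.0011, in WT; *mt-Co1*, −0.48 ± 0.0675, q = 2.2e-05, in KO), and 4 of the 7 fell in KO mice. With DHT *mt-Co1* rose in both (*mt-Co1*, 0.40 ± 0.0678, q = 1.2e-04, in WT; *mt-Co1*, 0.42 ± 0.0678, q = 2.1e-04, in KO), and 2 of the 7 rose in WT mice. Of all genes 3.58% fell after ORX in KO mice and 6.63% rose with DHT in WT mice. Both mitochondrial ribosomal RNAs were counted although the library kit depletes them, and their medians ran from −0.62 in the difference of DHT responses to 0.82 between genotypes with empty implants, with 0 of 2 past the threshold in any contrast. Of 9 genes of mitochondrial transcription and RNA stability, *Lrpprc* fell after ORX in KO mice (*Lrpprc*, −0.27 ± 0.0592, q = 0.00378), and *Mterf2* fell with DHT in WT mice (*Mterf2*, −0.35 ± 0.0769, q = 0.00172), was higher in KO-DHT than in WT-DHT (*Mterf2*, 0.64 ± 0.0734, q = 6.5e-07) and in KO-sham than in WT-sham (*Mterf2*, 0.40 ± 0.0843, q = 0.00213), and passed in the difference of DHT responses (*Mterf2*, 0.47 ± 0.108, q = 0.0134). *Tefm* was the other gene of the 9 to pass, higher in KO-DHT than in WT-DHT (*Tefm*, 0.35 ± 0.0855, q = 0.00466). Of 10 regulators of mitochondrial biogenesis only *Esrra* passed a threshold, lower after ORX in WT (*Esrra*, −0.40 ± 0.0578, q = 2.0e-05) and KO (*Esrra*, −0.46 ± 0.0613, q = 1.3e-05) and higher after DHT in WT (*Esrra*, 0.34 ± 0.0875, q = 0.00733) and KO (*Esrra*, 0.56 ± 0.0878, q = 1.5e-04).

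Cytosolic ribosomal protein genes, 87 in each table, had medians of the opposite sign to those of *Mrpl* in most contrasts: 0.06 and −0.15 after ORX in KO, −0.12 and 0.11 between sham genotypes, −0.18 and 0.05 after DHT in WT, the last turning to −0.03 for *Mrpl* with library-size scaling. After DHT in KO mice the pair was −0.14 and 0.16, and between genotypes under DHT it was −0.12 and 0.17. By library size the pair was 0.16 and −0.05 after ORX in KO mice and −0.04 and 0.26 between genotypes under DHT. Between KO-ORX and WT-ORX, where 13 of the 87 were lower and 0 higher, the medians were −0.16 and −0.04, the *Mrpl* value turning to 0.005 with library-size scaling. Of the 87, 5 rose after ORX in WT mice, 3 were lower between sham genotypes, 1 rose and 9 fell with DHT in WT mice, 1 fell with DHT in KO mice, 9 were lower in KO-empty than in WT-empty, and 1 was higher and 12 lower in KO-DHT than in WT-DHT, with 1 lower in the difference of DHT responses. Of all genes 2.04% rose after ORX in WT mice, and with DHT 4.64% fell in WT and 1.75% in KO mice. Shares lower between genotypes were 2.82% after sham surgery, 2.73% after ORX, 2.5% with empty implants and 6.51% under DHT. The 36 nuclear genes of complex I had medians of −0.19 after ORX in KO mice (8 fell), 0.17 between sham genotypes (3 higher), 0.19 after DHT in KO mice (7 rose) and 0.21 between genotypes under DHT (12 higher, 1 lower). Library-size scaling moved the median after ORX in KO mice to −0.09. In WT mice 2 of the 36 genes fell after ORX and 2 rose after DHT, 2 were higher in KO-ORX than in WT-ORX and 1 in KO-empty than in WT-empty. In the difference of DHT responses 1 was lower (*Ndufs4*, −0.40 ± 0.0888, q = 0.0102). Beside these counts of complex I genes, 3.41% of all genes fell after ORX in WT and 3.58% in KO mice. With DHT 6.63% rose in WT and 2.86% in KO mice. Shares higher between genotypes were 2.48% after sham surgery, 1.07% after ORX, 1.75% with empty implants and 5.13% under DHT. Differences between these lists and the members were not tested.

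Markers of cells other than fibers moved in some of the same contrasts. The adipocyte list (8 of 8 counted) summed to 1009 to 1558 CPM (median 1192) in KO-sham and 1651, 1940, 2541, 1992 and 2011 CPM in KO-ORX, and in spinalis to 5400 to 6809 CPM (median 5678) in WT-DHT and 2946 to 5004 CPM (median 4614) in KO-DHT. *Car3*, its most abundant gene in both muscles and one that muscle fibers express as well, rose after ORX in KO mice (*Car3*, 0.94 ± 0.0931, q = 1.1e-07) and also in WT mice (*Car3*, 0.84 ± 0.0894, q = 1.9e-07), where 0 members passed, and it made up most of these sums. It was lower in KO than in WT mice after sham surgery (*Car3*, −0.88 ± 0.0895, q = 2.1e-07), after ORX (*Car3*, −0.78 ± 0.0944, q = 3.8e-06) and under DHT (*Car3*, −0.59 ± 0.115, q = 5.3e-04), and it fell with DHT in KO mice (*Car3*, −0.66 ± 0.12, q = 7.4e-04). *Cfd* fell with DHT in WT mice (*Cfd*, −1.20 ± 0.32, q = 0.00898). The other 7 genes summed to 287.1 to 605 CPM (median 344) in KO-sham and 319.7, 339.9, 479.1, 376.1 and 470.5 CPM in KO-ORX, and to 304.1 to 796.7 CPM (median 468.6) in WT-DHT and 417.8 to 1075 CPM (median 569.5) in KO-DHT. All 7 had positive log2 fold changes between genotypes under DHT, the opposite sign to *Car3*, with a median of 0.53 over the 8, and after ORX in KO mice the median of the 8 was 0.04 with 5 positive and 3 negative. Of the 8, 7 were positive between sham genotypes (median 0.20), *Car3* being the exception. Between genotypes after ORX 6 were positive and 2 negative (median 0.48), with 5 at unadjusted p < 0.05. The fibroblast list (6 of 6 counted) summed to 1672 to 2657 CPM (median 1914) in KO-sham and 5240, 3641, 1786, 2382 and 1994 CPM in KO-ORX, with a median log2 fold change of 0.40 and 5 of 6 positive. *Lum* rose after ORX in KO (*Lum*, 0.57 ± 0.0933, q = 2.0e-04) and in WT mice (*Lum*, 0.59 ± 0.0889, q = 3.6e-05), where *Pdgfra* fell (*Pdgfra*, −0.23 ± 0.0585, q = 0.00982). With DHT *Dcn* rose in both genotypes (*Dcn*, 0.54 ± 0.114, q = 0.00121, in WT; *Dcn*, 0.51 ± 0.114, q = 0.00522, in KO), while *Pdgfra* fell in WT (*Pdgfra*, −0.44 ± 0.0841, q = 4.5e-04) and *Lum* in KO mice (*Lum*, −0.98 ± 0.142, q = 5.3e-05). *Dcn* was the most abundant fibroblast marker in gastrocnemius and *Col3a1* in spinalis. Of 13 fiber markers 5 fell after ORX in KO mice, led by *Tnni2*, −0.26 ± 0.0488, q = 7.3e-04, and 3 in WT mice, led by *Des*, −0.31 ± 0.0576, q = 5.7e-04. Between genotypes 2 were lower in KO mice after sham surgery, 4 after ORX, 1 with empty implants and 1 under DHT, where 12 of 13 were negative (8 with library-size scaling; median −0.11) and *Acta1*, −0.51 ± 0.0946, q = 3.3e-04, passed. With DHT 2 rose in WT and 1 in KO mice. Of all genes 3.58% fell after ORX in KO and 3.41% in WT mice, and with DHT 6.63% rose in WT and 2.86% in KO mice. Shares lower between genotypes were 2.82% after sham surgery, 2.73% after ORX, 2.5% with empty implants and 6.51% under DHT. Red blood cell markers (5 of 5, *Hbb-bs* the most abundant) summed to 281, 99.9, 168, 704 and 158 CPM in KO-empty and 153 to 217 CPM (median 203) in KO-DHT. By edgeR 0 of them passed in any contrast. Unadjusted p was under 0.05 for 4 between genotypes with empty implants, 1 between genotypes under DHT, 4 in the difference of DHT responses, the contrast in which *Mrpl38* passed, and 0 to 2 elsewhere. All were positive between genotypes with empty implants (median 0.92) and negative between genotypes under DHT (−0.43) and in the difference of DHT responses (−1.27). Endothelial (5 of 5, *Pecam1* most abundant), macrophage (6 of 6, *Mrc1*) and Schwann cell (5 of 5, *Pmp22*) lists had medians of 0.03, −0.004 and 0.006 after ORX in KO mice, which library-size scaling moved to 0.13, 0.10 and 0.12. Between sham genotypes all 6 macrophage markers were negative (median −0.25), with 1 past the threshold (*Csf1r*, −0.29 ± 0.0708, q = 0.00748), and *Csf1r* also fell after ORX in WT mice (*Csf1r*, −0.31 ± 0.0703, q = 0.00414). All 6 were positive between genotypes with empty implants (median 0.19, 1 at unadjusted p < 0.05). In the difference of DHT responses all 6 were negative (median −0.25, 0 at unadjusted p < 0.05), or 5 with library-size scaling. *C1qa* was lower in KO-ORX than in WT-ORX (*C1qa*, −0.48 ± 0.115, q = 0.00896). The 5 Schwann cell markers were all positive between genotypes under DHT (median 0.25, 0 past the threshold by edgeR and 0 at unadjusted p < 0.05), and the 5 endothelial markers after DHT in WT mice (median 0.33), where 1 passed (*Pecam1*, 0.33 ± 0.0725, q = 0.0019). All 5 Schwann cell markers were negative after DHT in WT (median −0.36, 2 at unadjusted p < 0.05) and in KO mice (−0.17, 0 at that p). After DHT in KO mice the 5 endothelial markers were again all positive (median 0.20, 2 at unadjusted p < 0.05). The fibroblast median was −0.45 there, with 4 of 6 negative and 5 at unadjusted p < 0.05. That of the red blood cell markers was −0.51, with all 5 negative. No marker of these lists was at 0 in any library, and the part of any of them in the values of the members was not tested.

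Promoter windows of 250 bases before to 50 bases after the start, from RefSeq on GRCm38.p6, were found for 68 of the 77 members, 74 windows in all. The motif bound by ETS factors, CCGGAAG on either strand, was in 25 of the 74 windows (33.8%) and in 8.86% of the 32851 windows of all genes. It was in 14 of 47 *Mrpl* windows (29.8%) and in 11 of 27 *Mrps* windows (40.7%). The core of the NRF1 motif, CGCATGCG, was in 7 of 74 (9.46%) and in 1.87% of all windows, and AAGATGGCG, which YY1 binds, in 8 of 74 (10.8%) and in 1.4% of all. The ERR motif AAGGTCA was in 4 of 74 (5.41%) and in 4.72% of all windows. TATAAA was in 5 of 74 (6.76%) and in 13.6% of all, and CCAAT in 29 of 74 (39.2%) and in 37.4% of all. Of the 21 windows of members past a threshold, 3 held the ETS motif, 2 the NRF1 core, 2 the YY1 motif, 0 the ERR motif, 2 TATAAA and 9 CCAAT. Such a match describes the sequence and says nothing of binding. The motifs were picked after the values were known, and so were the windows printed, those of the members past the threshold in at least 2 contrasts, shown so that the matches can be read in place. *Mrpl38*, the remaining gene of this kind, had no window. Each is written 5' to 3' on the strand of the gene, plus in all 6, with matches of ETS, NRF1 and YY1 motifs in capitals: *Mrpl55* at chr11:59202236-59202535, *Mrpl9* at chr3:94443086-94443385, *Mrpl3* at chr9:105053018-105053317, *Mrps27* at chr13:99344536-99344835, *Mrps5* at chr2:127587176-127587475 and *Mrps9* at chr1:42850983-42851282.

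Mrpl55: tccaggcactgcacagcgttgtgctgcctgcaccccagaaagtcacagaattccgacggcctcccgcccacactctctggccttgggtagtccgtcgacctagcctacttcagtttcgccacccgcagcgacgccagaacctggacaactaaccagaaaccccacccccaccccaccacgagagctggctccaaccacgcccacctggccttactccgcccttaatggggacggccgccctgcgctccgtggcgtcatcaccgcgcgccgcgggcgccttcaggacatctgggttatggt
Mrpl9: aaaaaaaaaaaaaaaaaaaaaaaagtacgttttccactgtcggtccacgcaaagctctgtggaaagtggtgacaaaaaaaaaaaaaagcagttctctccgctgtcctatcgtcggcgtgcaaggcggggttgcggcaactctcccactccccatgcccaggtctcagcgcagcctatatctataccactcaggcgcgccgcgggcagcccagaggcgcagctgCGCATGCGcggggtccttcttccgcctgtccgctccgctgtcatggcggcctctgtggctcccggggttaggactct
Mrpl3: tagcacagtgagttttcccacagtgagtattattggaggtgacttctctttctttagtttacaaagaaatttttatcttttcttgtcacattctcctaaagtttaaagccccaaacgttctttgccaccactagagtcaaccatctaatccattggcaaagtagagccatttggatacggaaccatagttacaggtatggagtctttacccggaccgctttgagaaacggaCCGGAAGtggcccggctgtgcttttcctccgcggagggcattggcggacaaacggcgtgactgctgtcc
Mrps27: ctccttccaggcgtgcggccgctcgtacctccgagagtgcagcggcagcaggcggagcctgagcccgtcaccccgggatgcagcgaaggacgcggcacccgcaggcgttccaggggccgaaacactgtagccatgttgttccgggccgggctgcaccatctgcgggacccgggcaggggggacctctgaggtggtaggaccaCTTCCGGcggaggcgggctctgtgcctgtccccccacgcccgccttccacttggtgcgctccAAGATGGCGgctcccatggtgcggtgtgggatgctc
Mrps5: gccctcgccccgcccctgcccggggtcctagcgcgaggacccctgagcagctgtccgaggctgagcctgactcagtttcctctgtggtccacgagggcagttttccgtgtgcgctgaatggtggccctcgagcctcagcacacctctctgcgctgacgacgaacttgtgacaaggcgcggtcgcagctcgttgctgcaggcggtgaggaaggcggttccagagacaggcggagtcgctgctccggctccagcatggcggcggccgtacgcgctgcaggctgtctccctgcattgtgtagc
Mrps9: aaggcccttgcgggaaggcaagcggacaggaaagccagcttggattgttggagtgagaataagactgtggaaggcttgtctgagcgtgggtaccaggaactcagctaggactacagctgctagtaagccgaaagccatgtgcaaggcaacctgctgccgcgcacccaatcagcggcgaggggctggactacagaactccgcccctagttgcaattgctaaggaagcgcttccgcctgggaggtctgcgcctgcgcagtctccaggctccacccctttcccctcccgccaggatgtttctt

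The window of *Mrpl9* held the NRF1 core once, that of *Mrpl3* the ETS motif once, and that of *Mrps27* the ETS and the YY1 motif once each. Windows of *Mrpl55*, *Mrps5* and *Mrps9* held none of the 3.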

How the data were processed

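The values are the gene counts deposited by the authors, 1 table for gastrocnemius and 1 for spinalis. The submitters' processing notes name STAR 2.7.1b, SAMtools 1.9, Picard 2.20.2 and featureCounts of Subread 2.0.0 on GRCm39. Of 46 described samples 45 had a column, and KO-ORX 6 had none; 0 columns of values were left unused. Columns of spinalis were matched to labels by group only, and the numbers of their libraries are the order of columns. Symbols, exon lengths and overlaps came from GENCODE M21 on GRCm38. Counts of each table were fitted apart with edgeR 4.0.16 in R 4.3.3 (TMM, quasi-likelihood F test, 4 group means), and a filter asking 2 or more libraries to reach 0.5 CPM removed 0 genes. P values were adjusted by Benjamini-Hochberg over all genes of a table (q), with thresholds of 0.01 for treatment and genotype and 0.05 for the difference of differences. Errors (±) are standard errors of log2 fold changes. DESeq2 1.42.0 and limma-voom 3.58.1 served as alternatives. Same-numbered libraries of the ORX groups were not paired, since the correlation of their deviations from group means over all genes exceeded 0.1 in only 6 of 22 pairs (−0.15 to 0.19). No library repeated another, as the lowest χ² per degree of freedom between libraries of a group was 9.13 over 105 pairs. Named members were, in each contrast, up to 10 past the threshold by p, or the 3 with the smallest p where fewer than 3 passed, the 3 most and 3 least abundant per kilobase of exon of *Mrpl* and *Mrps*, and *Mrps18a*, *Mrps18b*, *Mrps18c*, *Mrps30*, *Mrps36* and *Mrpl12*. Up to 3 genes past the threshold were named from each other list. Members and lists were chosen with earlier results of these data known.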

Additional observations from a re-analysis of the deposited data

Results flagged for a closer look

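*Mrpl55* had a WT-ORX library far from the other 5 by Dixon's test: WT-ORX 3, at 38.0 CPM, was the highest of its group. This was the only such library among 72 groups looked at, the sums of *Mrpl* and of *Mrps* and the 7 members past the threshold in at least 2 contrasts, and chance alone flags about 1 in 20 groups. *Mrpl38* passed the threshold for a difference between genotypes in its response to DHT, at 0.40 in log2 fold change (q = 0.0406). It was 1 of 77 members, near the share of all genes called higher, 1.34%. The call was lost in 17 of 22 fits with 1 library left out and without the 6 libraries with most *Lars2*.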

How the results depend on the processing

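Counts and medians of the members, and the log2 fold changes of the members named for a contrast by the rule, were computed again under the alternatives fixed beforehand, and 0 of these log2 fold changes changed sign. Medians of the other lists were computed again with library-size scaling and with DESeq2, and their counts of signs with library-size scaling. Calls and log2 fold changes given for single genes of those lists, and differences of differences given for further members, were not followed under the alternatives. Counts of members called, in the order of the contrasts WT ORX, KO ORX, sham genotype, ORX genotype, ORX interaction, WT DHT, KO DHT, empty genotype, DHT genotype and DHT interaction, were 0, 8, 5, 1, 0, 1, 1, 1, 12 and 1 by the chosen settings. DESeq2 gave 1, 16, 8, 3, 2, 1, 2, 2, 16 and 1, and limma-voom 0, 8, 6, 1, 1, 1, 1, 0, 13 and 1. Library-size scaling gave 0, 1, 1, 0, 0, 0, 0, 0, 24 and 2. Without a filter the counts were unchanged, and asking for 10 counts in every library gave 0, 7, 6, 1, 0, 1, 1, 1, 13 and 1. At q ≤ 0.05, or 0.01 for the interactions, they were 3, 19, 9, 5, 0, 4, 13, 2, 23 and 0. The number in the labels as a replicate block, possible for ORX only, gave 0, 8, 5, 1 and 0. Leaving out each library in turn gave 0 to 1 for WT ORX (1 without WT-ORX 3 or WT-sham 5), 2 to 13 for KO ORX (2 without KO-ORX 5, 13 without KO-sham 5), 2 to 6 for sham genotype, 0 to 1 for ORX genotype, 0 to 1 for ORX interaction, 0 to 2 for WT DHT (2 without WT-empty 1), 0 to 4 for KO DHT (4 without KO-empty 5), 0 to 1 for empty genotype, 9 to 14 for DHT genotype and 0 to 2 for DHT interaction (2 without KO-empty 5). The spread of a median was taken as the standard deviation between libraries of a group of the median deviation of the members from group means, 0.0689 to 0.0725 in log2, and medians moved by more than it only with library-size scaling, to −0.048 (*Mrpl*) and 0.0084 (*Mrps*) for KO ORX, −0.025 and −0.039 for WT DHT, and 0.26 and 0.16 for DHT genotype. Leaving out WT-DHT 5 and 6 together, chosen after the data were seen, gave 1, 1, 1, 12 and 1 in the DHT contrasts by TMM and 1, 1, 0, 11 and 1 with library-size scaling, and leaving out the 6 libraries with most *Lars2* gave 0, 0, 0, 8 and 0. Counting *Mrps30* and *Mrps18a* with the large subunit left all medians within that spread, although the *Mrps* median for ORX genotype, −0.008, became 0.009. Summed CPM by library size differed from the TMM sums by more than 1 standard deviation of the group in 29 of 90 sums.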
